A study of Mus musculus with 2 samples.

Results

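The transforming growth factor-beta (TGF-beta) system was examined through 10 of its genes in Ebp1 knock out and wild type mouse embryo fibroblasts (MEFs). They were the ligand genes Tgfb1, Tgfb2 and Tgfb3, the latent TGF-beta binding protein genes Ltbp1, Ltbp2 and Ltbp3, the receptor genes Tgfbr1, Tgfbr2 and Tgfbr3, and Smad7, the gene of an intracellular inhibitor. They were chosen by name, as every probe set whose only annotated gene symbol was 1 of these 10, out of 18193 genes with a symbol on the array. This gave 25 probe sets, of which 19 reached a signal of 100 intensity units on at least 1 array. The other 6 stayed under 100 on both arrays and are treated as low.

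Both cultures were grown from embryos of day 12.5, kept in medium with fetal bovine serum and harvested at passage 2. The Ebp1 knock out MEFs carry a retroviral gene trap in intron 2 of Pa2g4, the gene of Ebp1 in the mouse, and the wild type MEFs carry no trap. The mouse line came from 1 trapped embryonic stem cell clone and was kept on a background mixed from 2 inbred strains. RNA of each genotype was hybridized to 1 array, so no signal or ratio here has an error or a p-value from replicates. The comparison is between 2 cultures. The sources used here do not give whether a culture was made from 1 embryo or several.

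TGF-beta is made as a precursor whose propeptide stays bound to the mature dimer and keeps it inactive. Latent TGF-beta binding proteins tie this latent complex to the extracellular matrix, from which integrins and proteases release it. The free ligand binds the type II receptor, which phosphorylates the type I receptor, and this in turn phosphorylates Smad2 and Smad3. In fibroblasts the pathway is known for inducing matrix and contractile genes.

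Pa2g4 was lower in the Ebp1 knock out MEFs on each of its 5 probe sets, of which 1 was low, at 34.7 in knock out and 60.8 in wild type MEFs. Its brightest probe set had a signal of 1178 in knock out and 1835 in wild type MEFs (log2 of knock out over wild type signal -0.64), and 4 of the 5 stayed over 100 in knock out MEFs. By RT-PCR the study found no Ebp1 transcript in knock out MEFs, and by Western blot no Ebp1 protein. What gave the remaining signal on the array was not tested. The median signal was 71.6 on the knock out and 66.5 on the wild type array, and 57.1% of probe sets on the knock out and 57.9% on the wild type array were under 100. On the knock out array the 9 spike-in controls of the hybridization were brighter by 1.31 times. Scaling to them moves every log2 ratio by -0.39, and centring each array on its median moves every log2 ratio by -0.11, so the sign of a small positive ratio depends on the scaling. Signals of different probe sets are not compared with each other here, since brightness depends on the probes.

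Among the ligand genes, Tgfb1 was lower in Ebp1 knock out MEFs, while Tgfb2 and Tgfb3 lay within 1.5-fold. Tgfb1, which encodes the TGF-beta isoform best known for fibroblast activation, had a signal of 271 in knock out and 606 in wild type MEFs on probe set 1420653_at (log2 ratio -1.16, 2.23-fold lower). It reached 500 in wild type MEFs only. Its other probe set was dim and lay in the same direction, at 83.2 in knock out and 113 in wild type MEFs (log2 ratio -0.44). The knock out signal is under 100 there, and with it set to 100 the difference is at least 1.13-fold. Tgfb1 was the only 1 of the 10 genes over 2-fold apart, and all 10 reached 500 on 1 array or both. Over all 5014 genes that did so, 1.06% were over 2-fold lower and 0.758% over 2-fold higher, and 0.678% had a log2 ratio below that of Tgfb1.

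Tgfb2, the gene of an isoform with broad roles in embryonic development, was measured by 4 probe sets. They gave 783, 689, 438 and 165 in knock out MEFs, against 667, 681, 433 and 143 in wild type MEFs. The log2 ratios were 0.23 on the brightest, 1450923_at, and 0.02, 0.02 and 0.21 on the others, and all 4 fall below 0 after scaling to the spike-ins. The probe sets of Tgfb2 thus gave nearly equal signals in both cultures under the deposited scaling. Tgfb3, an isoform gene known for its part in palate fusion, had a single probe set, 1417455_at, with 3767 in knock out and 4537 in wild type MEFs (log2 ratio -0.27). It was lower under each of the 5 scalings tried, of which median centring and the spike-ins lower every ratio.

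The difference between 2 log2 ratios does not change when an array is multiplied by any factor. On the brightest probe sets, Tgfb2 minus Tgfb1 was 1.39 on the log2 scale. The ratio of Tgfb2 to Tgfb1 signal was thus 2.62 times higher in knock out than in wild type MEFs. Tgfb3 minus Tgfb1 was 0.89 and Tgfb2 minus Tgfb3 was 0.50. With the mean over probe sets that reached 100, Tgfb1 was -0.80, Tgfb2 0.12 and Tgfb3 -0.27, so these differences are smaller and depend on the probe set. The ratios of the 3 ligand genes thus differed between these 2 arrays, with that of Tgfb1 the lowest.

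**Figure D1:**
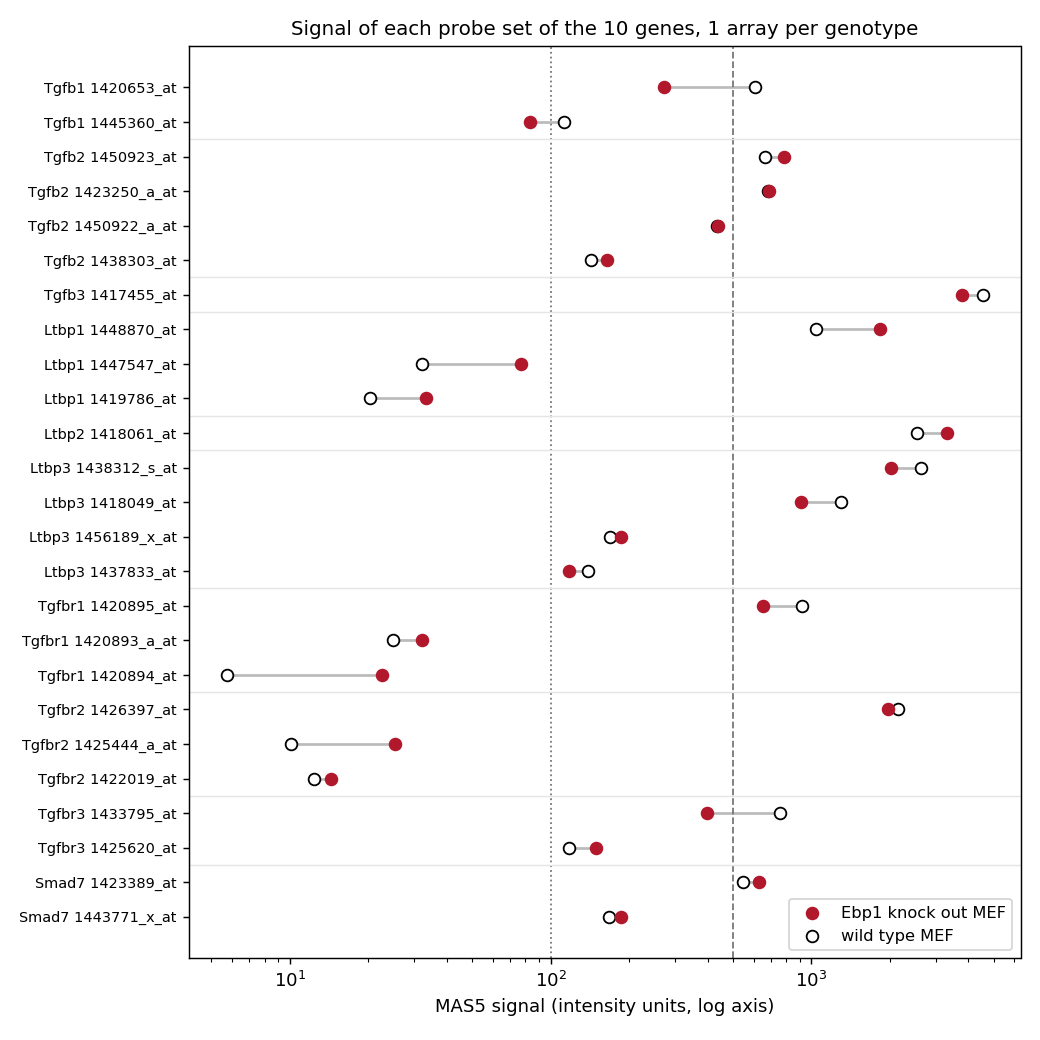
Signal of all 25 probe sets on a logarithmic axis, with Ebp1 knock out MEFs as filled red and wild type MEFs as open circles, 1 array each, and lines at 100 (dotted) and 500 (dashed). The pair of Tgfb1 probe set 1420653_at lies at 271 in knock out and 606 in wild type MEFs, while the pairs of 2 Tgfb2 probe sets nearly coincide.

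The sequences before the annotated starts of Tgfb1, Tgfb2 and Ltbp1 are shown because these are the ligand gene over 2-fold apart, a ligand gene that was not, and the gene with the highest ratio. They were taken from RefSeq (GRCm38.p6), which gave 9 promoters for 7 of the 10 genes, and each run covers the 250 bases before the start, 5′ to 3′ on the strand of the gene. Capitals mark matches on either strand to the letters GGGCGG of the GC box, TATAAA of the TATA box, TGACTCA of the AP-1 site, TGACGTCA of the cAMP response element, CACGTG of the E-box and GCGTGGGCG of the Egr site.
Tgfb1, chr7:25686752-25687001, plus strand: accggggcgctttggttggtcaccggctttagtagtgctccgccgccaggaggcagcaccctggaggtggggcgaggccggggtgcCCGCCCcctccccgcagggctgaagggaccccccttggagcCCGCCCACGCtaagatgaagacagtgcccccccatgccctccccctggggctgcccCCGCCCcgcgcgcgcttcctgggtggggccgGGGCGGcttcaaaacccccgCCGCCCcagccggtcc
Tgfb2, chr1:186705990-186706239, minus strand: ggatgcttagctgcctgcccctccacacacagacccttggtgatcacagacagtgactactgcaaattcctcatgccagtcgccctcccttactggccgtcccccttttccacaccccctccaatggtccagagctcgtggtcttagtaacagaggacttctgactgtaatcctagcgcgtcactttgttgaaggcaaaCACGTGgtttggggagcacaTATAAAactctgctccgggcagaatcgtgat
Ltbp1, chr17:75005279-75005528, plus strand: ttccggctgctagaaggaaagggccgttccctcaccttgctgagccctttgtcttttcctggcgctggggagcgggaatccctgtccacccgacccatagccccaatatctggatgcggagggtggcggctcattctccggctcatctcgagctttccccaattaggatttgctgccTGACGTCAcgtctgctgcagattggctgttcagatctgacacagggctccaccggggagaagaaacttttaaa

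The Tgfb1 window was 75.2% G and C, against a median of 52.4% over all 32851 promoters of the table. It held 5 GC boxes, which occur at least once in 32.7% of promoters, and 1 Egr site, found in 0.536% of promoters, which overlaps 1 of the GC boxes. The Tgfb2 window was 53.6% G and C and held 1 TATA box (12.4% of promoters), which begins 31 bases before the start, and 1 E-box (6.02%). The Ltbp1 window held 1 cAMP response element, found in 1.55% of promoters. A second annotated start of Ltbp1, at chr17:75178531-75178780 for the same 250 bases, held none of these motifs. An AP-1 site, found in 4.46% of promoters, was in none of the 9 windows. Of the other members, Ltbp2 had 2 GC boxes, 1 start of Tgfbr1 had 2, and Ltbp3, Tgfbr2 and the other start of Tgfbr1 had none of these 6 motifs. The Smad core, with the letters CAGAC, was searched too but is not in capitals, since 42.2% of promoters hold it. It was found in the windows of Tgfb2, Ltbp1, Ltbp2, Ltbp3, Tgfbr2 and 1 start of Tgfbr1, and not in that of Tgfb1. These are matches of letters and do not show that a factor binds.

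The 3 latency protein genes differed from each other, with Ltbp1 and Ltbp2 higher and Ltbp3 lower in the knock out under the deposited scaling (Ltbp2 was -0.01 after scaling to the spike-ins). Ltbp1, which encodes the binding protein that holds latent TGF-beta in the matrix, had 1836 in knock out and 1042 in wild type MEFs on probe set 1448870_at (log2 ratio 0.82, 1.76-fold higher). Of all genes that reached 500, 1.18% had a higher ratio. The other probe sets of Ltbp1 were low, at up to 76.9 in knock out MEFs and down to 20.2 in wild type MEFs, and give no fold. Ltbp1 was the only 1 of the 10 genes that stayed higher under all 5 scalings, with log2 ratios from 0.42 with the spike-ins to 0.83 with loess.

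Ltbp2, a microfibril-associated family member that does not bind latent TGF-beta, had 3301 in knock out and 2537 in wild type MEFs on its single probe set, 1418061_at (log2 ratio 0.38). Ltbp3, which does bind latent TGF-beta and is known for its role in skeletal growth, had 2012 in knock out and 2632 in wild type MEFs on probe set 1438312_s_at (log2 ratio -0.39). A second bright probe set gave 916 in knock out and 1302 in wild type MEFs (log2 ratio -0.51). The dimmer ones lay on both sides of 0, at 187 in knock out and 168 in wild type MEFs (0.15) and at 117 in knock out and 139 in wild type MEFs (-0.24). Ltbp1 minus Ltbp3 was 1.20 on the log2 scale, so the ratio of Ltbp1 to Ltbp3 signal was 2.30 times higher in knock out MEFs. Ltbp1 minus Ltbp2 was 0.44 and Ltbp2 minus Ltbp3 was 0.77.

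**Figure D2:**
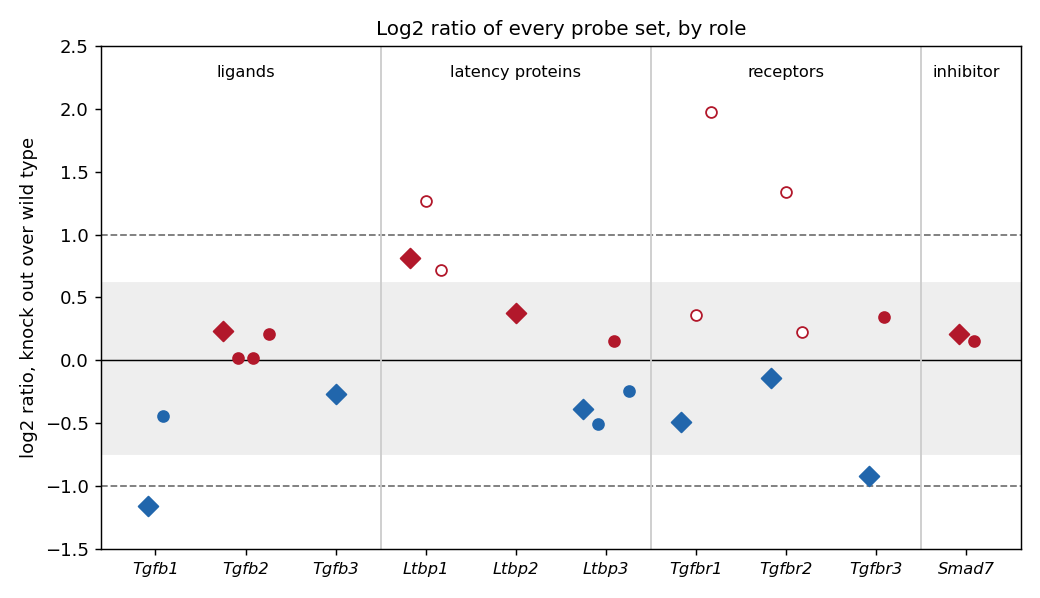
Log2 of knock out over wild type signal on the vertical axis for each of 25 probe sets, by role. Diamonds mark the brightest probe set of a gene, circles the others, open circles were under 100 on both arrays, red is above and blue below 0, dashed lines mark 2-fold and the grey band the middle 95% of the 5014 genes that reached 500 (-0.75 to 0.61). The diamonds of Tgfb1, Tgfbr3 and Ltbp1 lie outside the band.

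All 3 receptor genes were lower in the knock out on their brightest probe set, and none was over 2-fold apart under the deposited scaling. They were lower under each of the 5 scalings, but median centring and the spike-ins lower every ratio. Under these, 72.8% and 94.3% of all genes that reached 500 were lower. Tgfbr3, which encodes betaglycan, a co-receptor that presents ligand to the type II receptor, had 399 in knock out and 757 in wild type MEFs on probe set 1433795_at (log2 ratio -0.92, 1.89-fold lower). Like Tgfb1, it reached 500 in wild type MEFs only. Its other probe set lay in the opposite direction, at 149.7 in knock out and 118 in wild type MEFs (0.35), so the 2 probe sets of Tgfbr3 disagree. The brightest one was over 2-fold lower after median centring (-1.03) and with the spike-ins (-1.31). Of all genes that reached 500, 1.28% had a ratio below that of Tgfbr3.

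Tgfbr1, the gene of the type I receptor kinase, had 654 in knock out and 921 in wild type MEFs on probe set 1420895_at (log2 ratio -0.49). Its other probe sets were low, at 32.1 and 22.5 in knock out and 24.9 and 5.75 in wild type MEFs, and give no fold. Tgfbr2, the gene of the type II receptor kinase that binds the ligand first, had 1959 in knock out and 2154 in wild type MEFs on probe set 1426397_at (log2 ratio -0.14). Its other probe sets were low too, at 25.4 and 14.4 in knock out and 10.1 and 12.4 in wild type MEFs. Of all genes that reached 500, 38.5% had a lower ratio than Tgfbr2. On the brightest probe sets, Tgfbr2 minus Tgfbr3 was 0.78 and Tgfbr2 minus Tgfbr1 was 0.36 on the log2 scale. With the mean over probe sets that reached 100, Tgfbr3 was -0.29, Tgfbr2 -0.14 and Tgfbr1 -0.49, so the place of Tgfbr3 depends on the probe set.

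Smad7, which encodes an inhibitory Smad that blocks the type I receptor and is itself induced by TGF-beta, had 629 in knock out and 545 in wild type MEFs on probe set 1423389_at. Its other probe set gave 186 in knock out and 168 in wild type MEFs. The log2 ratios were 0.21 and 0.15, and both are below 0 after scaling to the spike-ins. On the brightest probe sets, Smad7 minus Tgfb1 was 1.37 on the log2 scale.

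Taking the brightest probe set of each gene, 6 of the 10 genes were lower and 4 higher in the knock out, with a median log2 ratio of -0.20 and a range of -1.16 to 0.82. Over all genes that reached 500 the median was -0.05 and 57.8% were lower. The share of the 10 genes that were lower is thus close to the background. At 1.5-fold, Tgfb1 and Tgfbr3 were lower and Ltbp1 higher, against 5.11% lower and 2.99% higher over all genes. Tgfb1 and Tgfbr3 passed the minimum of 500 only through their wild type signal. For the 8 genes over 500 on both arrays the median was 0.03. Of the 19 probe sets that reached 100, 9 were lower and 10 higher under the deposited scaling. With the spike-ins 18 were lower, the exception being the brightest probe set of Ltbp1. Over all genes that reached 500, 94.3% were lower under that scaling. Over all 45037 probe sets, with no minimum signal, 47.1% were lower under the deposited scaling. The share over all probe sets that reached 100 was not computed, so neither count of probe sets has a like background.

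**Figure D3:**
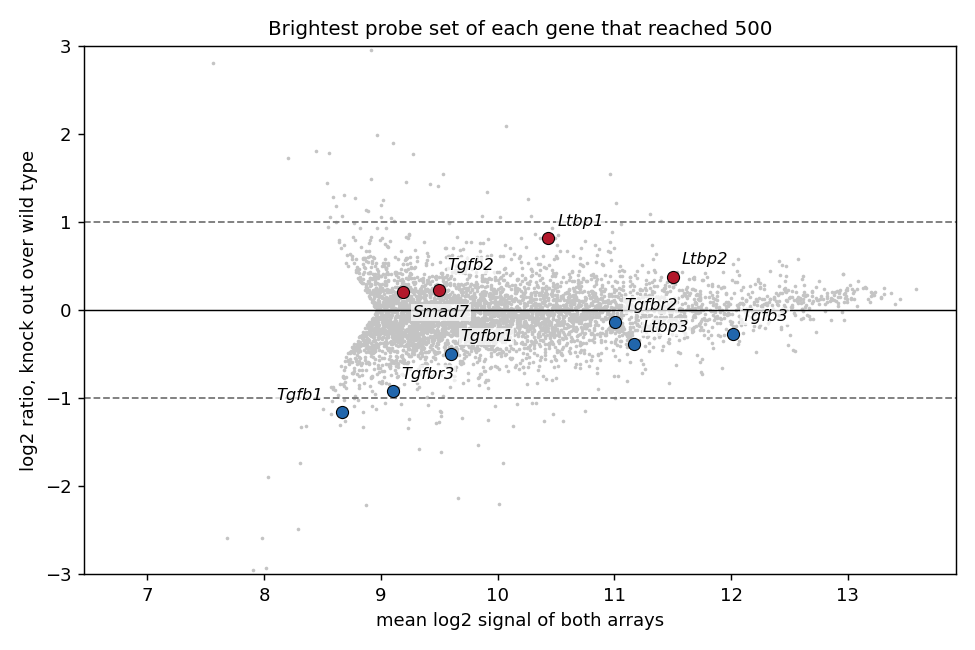
Log2 of knock out over wild type signal against the mean log2 signal of both arrays, for the brightest probe set of each gene that reached 500 on either array (grey, 3 genes lie beyond the axis), with the 10 genes labelled (red above and blue below 0, deposited scaling). Only Tgfb1 lies beyond the dashed line of 2-fold, at -1.16.

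**Figure D4:**
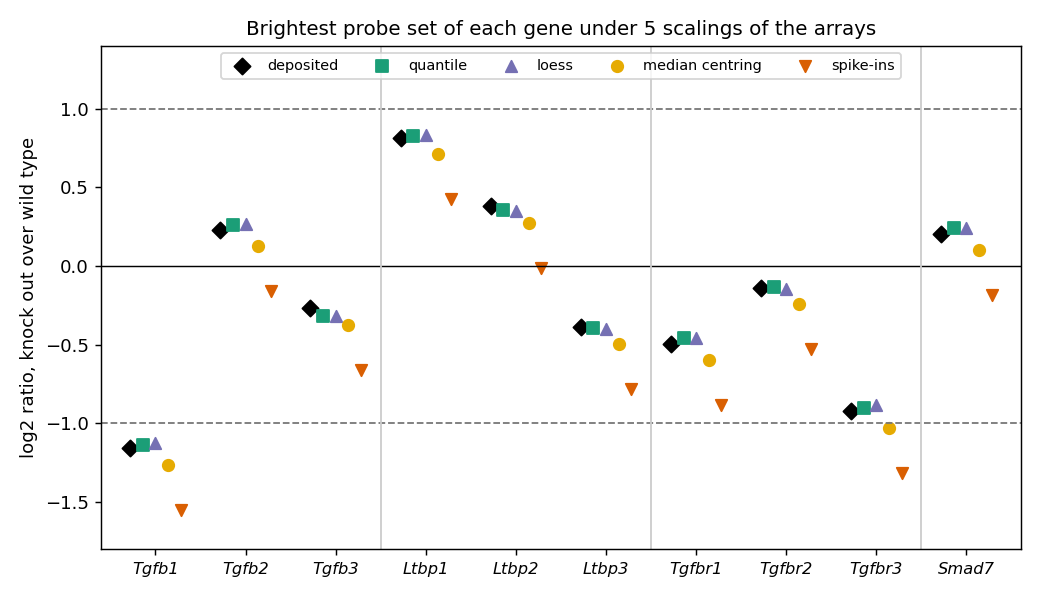
Log2 of knock out over wild type signal of the brightest probe set of each of the 10 genes under 5 scalings of the arrays, with dashed lines at 2-fold. With the spike-ins Tgfb2 (-0.16), Ltbp2 (-0.01) and Smad7 (-0.19) are below 0 and only Ltbp1 is above it, at 0.42.

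The other genes of the pathway were grouped by role in lists, with the brightest probe set of each gene. Of 52 genes in 7 lists that reached 500, 30 had a log2 ratio above 0 and 22 below 0, and 1 was over 2-fold apart. Over all genes that reached 500, 57.8% were lower, 1.06% were over 2-fold lower and 0.758% over 2-fold higher. Of 10 genes of matrix proteins, integrins and proteases that hold or release latent TGF-beta, 8 had ratios below 0 and 2 above, with a median of -0.20. Thbs1, which encodes thrombospondin-1, an activator of latent TGF-beta, had 7432 in knock out and 4974 in wild type MEFs (log2 ratio 0.58), and its other probe set was over 2-fold higher at 4021 in knock out and 1650.4 in wild type MEFs (1.28). Itgav, the gene of the integrin subunit that binds the propeptide, was 5543 in knock out and 5614 in wild type MEFs (-0.02). Mmp14, which encodes a membrane-bound metalloproteinase, was 3445 in knock out and 4185 in wild type MEFs (-0.28), but its other probe sets gave 0.69 and 0.30. Emilin1, named after its values were seen, encodes a matrix protein that restrains processing of the TGF-beta precursor and was 570.4 in knock out and 1044 in wild type MEFs (-0.87), with -0.16 on its other probe set.

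Among proteoglycan genes whose products bind TGF-beta, Dcn was the only 1 of the 52 genes over 2-fold apart on its brightest probe set. Dcn, which encodes decorin, had 419 in knock out and 1275 in wild type MEFs (log2 ratio -1.61, 3.05-fold lower), and reached 500 in wild type MEFs only. Fmod, the gene of fibromodulin, was 347 in knock out and 547 in wild type MEFs (-0.65), and its 6 probe sets were all lower. Aspn, which encodes asporin, was 1494 in knock out and 2151 in wild type MEFs (-0.53). Bgn, the gene of biglycan, was 8767 in knock out and 7967 in wild type MEFs (0.14, or below 0 after scaling to the spike-ins).

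Genes of the intracellular pathway had list medians close to 0 under the deposited scaling, with Smad2 and Tgif1 the highest of their lists. Of 4 signal transducer genes that reached 500, the median log2 ratio was 0.09, and for the same 4 genes it was -0.01 after median centring and -0.30 with the spike-ins. Smad4, the gene of the common partner Smad, was 1717 in knock out and 1737 in wild type MEFs (-0.02). Smad3, the gene of a Smad phosphorylated by the type I receptor, was 829.7 in knock out and 846 in wild type MEFs (-0.03), and the adaptor gene Dab2 was 1381 in knock out and 1201 in wild type MEFs (0.20). Smad2, the gene of the other Smad phosphorylated by that receptor and named after its values were seen, was 623 in knock out and 446 in wild type MEFs (0.48), and its other probe set gave 160.04 in knock out and 198 in wild type MEFs (-0.30). The 9 genes of pathway inhibitors had a median of 0.11, or -0.29 with the spike-ins. Among these Fkbp1a, whose product binds and restrains the type I receptor, had a log2 ratio of 0.01, Pmepa1, a TGF-beta induced feedback gene, 0.13 and Strap 0.14. The other probe sets of Fkbp1a gave 0.09, 0.25 and 0.49, apart from a low one. Those of Pmepa1 gave 0.42 and 0.32, and those of Strap 0.06 and -0.16. The ratios of Fkbp1a and Pmepa1 thus depend on the probe set. Tgif1, named after its values were seen, encodes a Smad corepressor and was 685 in knock out and 413 in wild type MEFs (0.73). Of 3 accessory receptor genes, Nrp1 (-0.35) and Acvr1 (-0.28) were below 0 and Cd109 (0.10) above it. The other probe sets of Nrp1 gave -0.41, 0.01 and -0.27, and those of Acvr1 0.35 and 0.47.

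Of 18 known target genes of TGF-beta that reached 500, 14 had a log2 ratio above 0 and 4 below it. Over all genes that reached 500, 2115 were above 0 and 2899 below it. The median of the 18 was 0.20 under the deposited scaling. For the same genes it was smaller under each other scaling, at 0.12 with loess, 0.10 after median centring, 0.08 with quantile normalization and -0.19 with the spike-ins. None was over 2-fold apart on its brightest probe set. The collagen gene Col1a2 was 9997 in knock out and 8374 in wild type MEFs (0.26), and its other probe sets gave 0.09 and -0.33. Acta2, which encodes smooth muscle actin, was 9902 in knock out and 8283 in wild type MEFs (0.26), and Ccn2, the gene of connective tissue growth factor, 9166 in knock out and 6923 in wild type MEFs (0.40). Cnn1 and Postn, named after their values were seen, were at the ends of the range. Cnn1, which encodes calponin, was 1977 in knock out and 1092 in wild type MEFs (0.86), and Postn, which encodes periostin, 4042 in knock out and 5607 in wild type MEFs (-0.47). Tgfb1 had a ratio below that of each of these 18 genes, but only 0.678% of all genes that reached 500 lay below Tgfb1. Other probe sets of listed genes that reached 500 and were over 2-fold apart, also named after their values were seen, lay in both directions. Timp3, which encodes a metalloproteinase inhibitor, had 1 at 805 in knock out and 319 in wild type MEFs (1.33), against 0.52 on its brightest. Itgb1, the gene of an integrin subunit, had 1 at 618 in knock out and 142 in wild type MEFs (2.12), against 0.35 on its brightest. Tgfbi, a target gene that is not among the 18 because its brightest probe set stayed under 500 (383 in knock out and 403 in wild type MEFs, -0.07), had 2 others that were lower, with log2 ratios of -1.62 and -2.02.

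**Figure D5:**
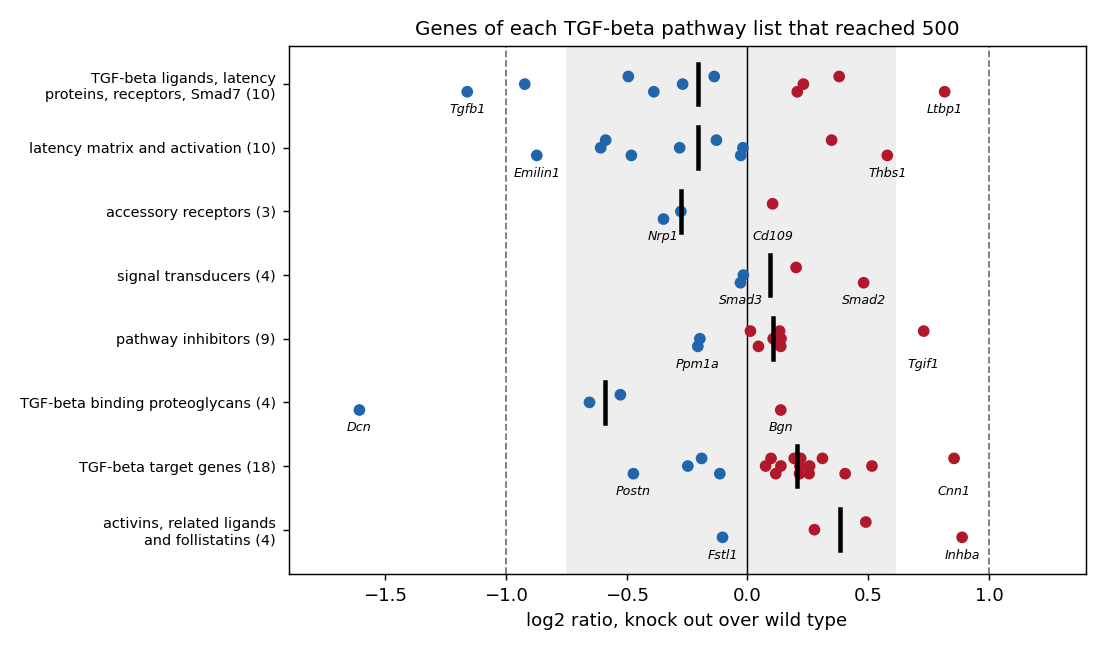
Log2 of knock out over wild type signal on the horizontal axis for genes of each list that reached 500 (their number in parentheses), with the list median as a black bar, the lowest and highest gene labelled, dashed lines at 2-fold and the middle 95% of all genes that reached 500 in grey. Values are under the deposited scaling, and with the spike-ins each of these points, and each median over the same genes, lies 0.39 further to the left.

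The cultures were checked with markers of cell types. All 11 fibroblast markers reached 500, with a summed signal of 57074 in knock out and 55252 in wild type MEFs. Of these 5 were higher in knock out MEFs, up to a log2 ratio of 0.39 for S100a4, and 6 were lower. Among the lower ones Lum, Dcn and Pdgfra were over 2-fold apart, with log2 ratios of -2.58, -1.61 and -1.33. The other probe sets of Pdgfra were under 100 on both arrays. Col1a1, Col1a2, Col3a1, Fn1 and Dcn of the fibroblast markers are also in the target or proteoglycan lists above. Acta2, Tagln and Cnn1 of the smooth muscle markers are also target genes there, so the markers are not separate from those lists. The summed signal of 5 smooth muscle markers was 19731 in knock out and 16479 in wild type MEFs. That of 6 epithelial markers was 1880.1 in knock out and 472 in wild type MEFs, of which 1 probe set of Epcam gave 1350.5 in knock out and 174 in wild type MEFs, and its other probe set 4.07 in knock out and 5.81 in wild type MEFs. Of the other epithelial markers Krt19 was 197 in knock out and 88.0 in wild type MEFs, Cldn4 was 121 in knock out and 36.2 in wild type MEFs, and the brightest probe sets of Krt8, Krt18 and Cdh1 were under 100 on both arrays. Endothelial markers summed to 266 in knock out and 264 in wild type MEFs, and of the markers of blood, neural and skeletal muscle cells none reached 500. In RNA of a whole culture, fewer cells of a type and less RNA per cell cannot be told apart, and the part of these markers in the ratios of Tgfb1, Tgfbr3 and Ltbp1 was not tested.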

How the data were processed

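RNA of Ebp1 knock out and wild type MEFs was measured once for each genotype. The deposited values are linear signal intensities from MAS5, which the authors scaled to 1 constant target on both arrays. Probe sets carry identifiers of a mouse array. From 45101 probe sets 64 control probe sets were left out. Of the other 45037, 34945 had 1 gene symbol in the platform annotation, 932 had several and 9160 were unnamed here. Knock out over wild type signal was taken as a log2 ratio per probe set, and a gene was represented by the probe set with the highest mean log2 signal. The minimum of 500 and the limit of 2-fold are those of the study's methods, here with 500 required on either array. The limit on p that the methods also name was not applied. The study reports p-values for single genes, but the values used here hold signals only, and 1 array per genotype gives no p from replicates. Signals under 100 were called low and set to 100 where a fold was given, which then is a bound. Without replicates there is no spread, so no test was run, and the number of arrays limits the precision.

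The 10 genes and the lists were chosen with earlier results of these data known. Of 85 list entries 5 are not analysed here. Genes of a list named in the text are those over 2-fold apart and up to 3 brightest others, and any other is said to be named after its values were seen. The markers named were chosen after their values were seen. No gene was named for likeness to a member, since 2 arrays give 1 ratio. Alternatives were median centring, quantile normalization, loess (fraction 0.3), scaling to the spike-ins, signals raised to 100 or 500, 50 added to each signal, the mean over probe sets, no probe sets with the suffixes _x_at and _s_at, and other minimum signals and folds. The scalings were tested on simulated data in which the knock out array differed by a constant factor that the spike-ins shared. That test does not show which scaling suits these arrays. Scripts ran in Python 3.11.15 with pandas 2.3.3, numpy 2.4.6, matplotlib 3.10.9 and statsmodels 0.14.6. Promoters came from RefSeq (GRCm38.p6).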

Additional observations from a re-analysis of the deposited data

How the results depend on the processing

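For the 10 genes, 88 of 90 log2 ratios under the alternatives lay within 1.5-fold of the main one. The others were Tgfb1, at -0.28 with signals raised to 500, and Tgfbr3, at -0.29 with the mean over its probe sets. The sign changed for 3, Tgfb2, Ltbp2 and Smad7, all with the spike-ins. Much of the count of 88 was fixed in advance, so it is a weak check. Median centring and the spike-ins move every ratio by -0.11 and -0.39, which is under 1.5-fold. Raising signals to the low limit changed none of the 10 ratios, since each brightest probe set was above it on both arrays. Leaving out probe sets by suffix changed only the ratio of Ltbp3. The count of 1 of the 10 genes over 2-fold was 2 after median centring and 2 with the spike-ins, where Tgfbr3 joined Tgfb1. It was 0 with signals raised to 500, 0 with the mean over probe sets, 0 with at least 500 on both arrays (8 genes), 0 when 3-fold was asked for and 3 when 1.5-fold was, and it was 1 under the others. With signals raised to 500 or a minimum on both arrays the low signals of Tgfb1 and Tgfbr3 in knock out MEFs are lost by construction. Of 19 probe sets 9 were lower, and 18 with the spike-ins, which lower each ratio by the same amount. The median over the 10 genes stayed below 0 apart from at least 500 on both arrays (0.03). The sign of 6 of 63 list medians changed, 4 with the spike-ins, where the genes that reach 500 were taken anew under each scaling (signal transducers had 5 genes and a median of -0.41, against -0.30 over the same 4 genes). No paired analysis was possible because each genotype has 1 array.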

Other observations

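Genes of activins, related ligands and follistatins, which use the same Smad2 and Smad3 branch, were counted among the 52 genes above but not described there. Of 12 genes listed, 10 were matched and 4 reached 500, with a median log2 ratio of 0.38, or -0.01 after scaling to the spike-ins. Inhba, which encodes the activin A subunit, had 2750.5 in Ebp1 knock out and 1485 in wild type MEFs (log2 ratio 0.89). Another probe set of Inhba was low, at 20.1 in knock out and 11.1 in wild type MEFs. Fst, the gene of the activin antagonist follistatin, was 1028 in knock out and 848 in wild type MEFs (0.28), and Fstl3, a related antagonist gene named after its values were seen, 574 in knock out and 408 in wild type MEFs (0.49). Fstl1, which encodes a distant relative of follistatin, was 6311 in knock out and 6778 in wild type MEFs (-0.10). Inhba thus lay above 0, and Tgfb1 below 0, at log2 ratios of 0.89 and -1.16, and neither difference has a replicate check.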
